A study of Mus musculus with 8 samples.

Results

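ILC1/3P, sorted from mouse fetal liver as CD94+ PD-1- cells, were set against ILCP, the CD94- PD-1+ cells of the same liver compartment. The comparison used 2 ILC1/3P and 3 ILCP libraries of bulk RNA sequencing, 5 of the 8 libraries of the series. The other 3 libraries are of common lymphoid progenitors (CLP), which entered only an alternative fit of all 8 libraries. Innate lymphoid cells (ILC) are lymphocytes without rearranged antigen receptors. All mice were C57BL/6 wild type and untreated, and no transgene or deletion was carried by any group. Both gates took cells that bore CD45, CD127 and the integrin α4β7 and that lacked lineage markers, Flt3 and CD25. The gates therefore differed in CD94, encoded by Klrd1, and in PD-1, encoded by Pdcd1. The labels give an age of 6 to 8 weeks for samples that they also call fetal liver, so the age of the cells sequenced is not clear. They name no separate animals, cultures or pools behind the libraries, so the p-values measure the spread between these libraries, which may be technical.

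As background, CD94 pairs with NKG2 proteins into receptors that read MHC class I related molecules on other cells. It is a surface marker of natural killer (NK) cells and of part of the type 1 ILC. PD-1 is an inhibitory receptor known mainly from activated T cells, and it also marks committed ILC progenitors before they divide into subsets. ILC1 and NK cells make interferon gamma, ILC2 make type 2 cytokines, and ILC3, including the lymphoid tissue inducer cells of the fetus, make IL-22 and lymphotoxins. The transcription factors Id2, TCF-1 (Tcf7), GATA3, TOX and Bcl11b are known from the steps at which these lineages form.

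The libraries held 6043940 to 6905448 counts in ILCP and 6310739 to 8082476 in ILC1/3P. A count was recorded for 13019 to 13703 genes per ILCP library and for 12230 to 12705 per ILC1/3P library. The 50 highest genes took 15.1% to 18.05% of the counts in ILCP and 24.8% to 29.2% in ILC1/3P, and mitochondrially encoded genes took 2.71% to 4.13% and 4.91% to 5.39%. Across genes, log2 levels correlated at r = 0.883 to 0.904 among the ILCP libraries, 0.877 between the ILC1/3P libraries and 0.769 to 0.807 between the groups. Genes are not independent replicates. In bulk samples fewer cells of a type and less RNA per cell cannot be told apart.

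Of 12151 genes with enough counts to test, 1789 (14.7%) passed an adjusted p of 0.05 in edgeR's quasi-likelihood test with Benjamini-Hochberg adjustment. Higher in ILC1/3P were 986 genes (8.11%), and lower were 803 (6.61%). These shares are the background for the counts of gene groups given here. Shares rose with level, to 27.0% higher and 11.9% lower in the bin of tested genes with the highest mean level. The median log2 fold change of all tested genes was -0.21. The split between directions depended on the scaling. With counts scaled by library size alone, the median was -0.85, 448 genes were higher and 1743 lower, and the share of calls that were higher was 20.4% in place of 55.1%. No gene called in the main fit had the opposite sign under that scaling. Levels are given as CPM, counts relative to the library total after edgeR's TMM scaling of the 5 libraries, in the order of the replicate numbers, ILCP before ILC1/3P. Fold changes are log2 of ILC1/3P over ILCP, so that positive values are higher in the CD94+ gate. A gene called higher or lower passed the adjusted p of 0.05.

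**Figure D1:**
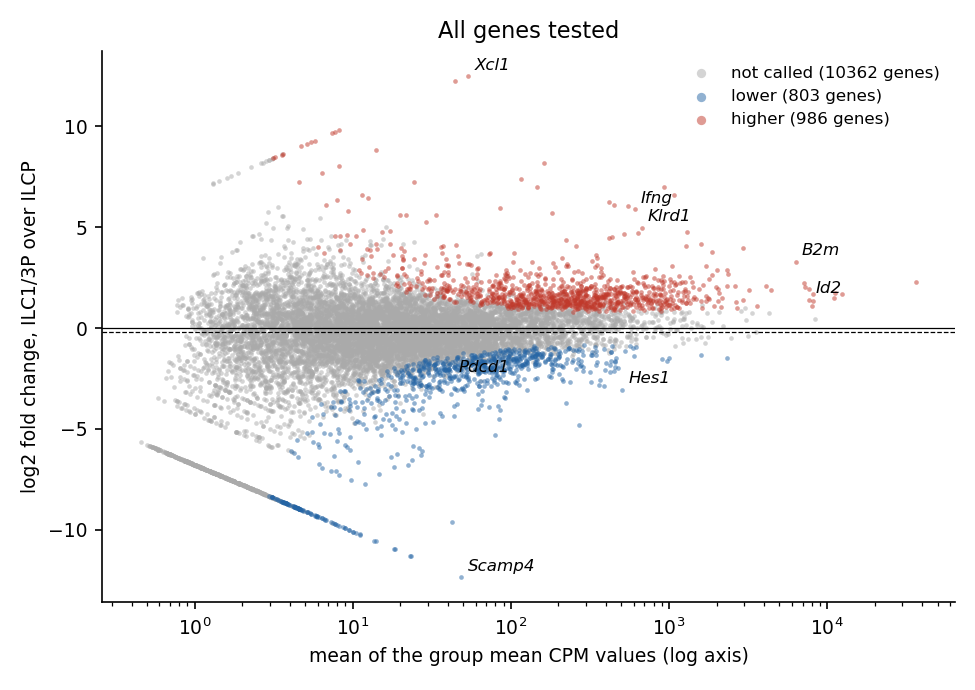
Log2 fold change of ILC1/3P over ILCP (vertical axis) against the mean CPM of the gate means (horizontal axis, logarithmic) for the 12151 tested genes, with the 986 higher genes in red, the 803 lower genes in blue and the others in grey. The dashed line is the median of -0.21, and the diagonal rows of points at the edges are genes with no count in one gate, whose fitted values depend on the prior count and are not sizes of change.

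The sort genes were read first as a check of the labels. Klrd1 (ENSMUSG00000030165, chr6:129591782-129598775, mm10) had 40.2, 17.7 and 66.4 CPM in the ILCP libraries and 1098 and 1513 CPM in the ILC1/3P libraries. It was higher in both ILC1/3P libraries than in any ILCP library, with a log2 fold change of 4.98 ± 0.51 (SE), adjusted p = 0.00185. Pdcd1 (ENSMUSG00000026285, chr1:94038305-94052553) had 99.4, 41.4 and 75.4 CPM in the ILCP libraries and 9.46 and 16.2 CPM in the ILC1/3P libraries. The highest ILC1/3P library lay under the lowest ILCP library, with a log2 fold change of -2.49 ± 0.52 (SE), adjusted p = 0.0155. Because both genes encode the proteins the cells were sorted on, these differences are a check of the gates and not a result. Il7r, which encodes CD127 and was required in both gates, was nevertheless lower in ILC1/3P, with 464, 427 and 455 CPM against 199.5 and 199 CPM and a log2 fold change of -1.17 ± 0.23 (SE), adjusted p = 0.0124. Itga4, the α4 chain of the α4β7 integrin that both gates also required, was lower at -1.71 ± 0.30 (SE), adjusted p = 0.00835. Pdcd1 missed the threshold without replicate 1 or 3 of ILCP or replicate 1 of ILC1/3P (adjusted p 0.0544 to 0.073), and Il7r did so without replicate 1 or 3 of ILCP or replicate 2 of ILC1/3P (adjusted p 0.0541 to 0.0606).

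Most tested receptors of the NK gene complex were higher in ILC1/3P. Of 33 receptor genes of this list 17 had enough counts to test, 11 were higher in ILC1/3P and none was lower, with a median log2 fold change of 4.98. Both values include Klrd1, the gene of the gate, and the median is Klrd1's own value. In a count added after the data were seen, without Klrd1, 10 of 16 tested genes were higher, none was lower, and the median was 4.57. Some members had next to no counts in ILCP and passed the count filter through ILC1/3P. Klra5 and Klrb1a had a mean of 0 CPM in ILCP, Klrc3 0.217, Klri1 0.827, and Klrc2 and Klre1 1.35. For such genes a positive sign was nearly fixed in advance, so these counts and medians partly reflect the filter. Klrc1, which encodes NKG2A, the inhibitory partner of CD94, had 19.4, 18.1 and 6.40 CPM in the ILCP libraries and 2282 and 1410.00 CPM in the ILC1/3P libraries. Klrc2, for the activating partner NKG2C, had 0.791, 0.640 and 2.61 CPM in the ILCP libraries and 287 and 173 CPM in the ILC1/3P libraries. Klrc1 and Klrc2 were thus low in every ILCP library and high in both ILC1/3P libraries. Their log2 fold changes were 6.98 ± 0.51 (SE), adjusted p = 0.000553, and 7.40 ± 0.60 (SE), adjusted p = 0.000907. Klrk1, for the activating receptor NKG2D, rose from 13.3, 17.4 and 19.2 CPM in ILCP to 749 and 1437 CPM. Klri2, whose protein pairs with Klre1, had 11.9, 9.99 and 10.1 CPM in the ILCP libraries and 887 and 753 CPM in the ILC1/3P libraries. It carried the smallest adjusted p of the receptors just given, 5.03e-05, at a log2 fold change of 6.27 ± 0.27 (SE). Klre1 itself had a log2 fold change of 5.59.

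The Klrb1 branch of the complex was less uniform. Klrb1c, which encodes NK1.1, the antigen by which NK cells are recognised in this strain, had 0.659, 2.18 and 3.92 CPM in the ILCP libraries and 279 and 299 CPM in the ILC1/3P libraries. Klrb1b, for an inhibitory receptor, was already present in ILCP, with 124, 116 and 164 CPM against 871 and 559 CPM, and its log2 fold change of 2.41 ± 0.29 (SE), adjusted p = 0.00247 was smaller than that of Klrb1c. Cd69, the early activation antigen, is encoded in the same complex and had 262, 466 and 359 CPM in the ILCP libraries and 3192 and 2910.4 CPM in the ILC1/3P libraries. All 5 libraries held Cd69 counts, and the log2 fold change was 3.07 ± 0.29 (SE), adjusted p = 0.00123. Among the Ly49 receptors, Klra5 had no count in the 3 ILCP libraries and 134 and 43.5 CPM in ILC1/3P, at least 744-fold higher against a floor of 3 counts over the group. Most other Klra genes were at or near 0 in all 5 libraries and were not tested.

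By position, the region from Klrb1a to the last Klra gene spans chr6:128609227-131247362 in mm10, 2.64 Mb, and holds 82 genes of the count table. Of these, 26 were tested, 13 were higher, 0 were lower, and the median log2 fold change was 2.24. Without Klrd1, which the gate used, 12 of 25 tested genes were higher and the median was 2.06. Both counts still hold genes that passed the count filter through ILC1/3P alone, such as Klra5 and Klrb1a. The 56 genes that were not tested had too few counts. Higher genes lay around Klrd1, from Klre1 to Klri2, and at the Klrb1 end, with Cd69 and Klra5 apart from both. Klrc3 and Klri1, which lie between Klre1 and Klri2, were tested without a call, and so was Gabarapl1, which encodes an autophagy protein.

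**Figure D2:**
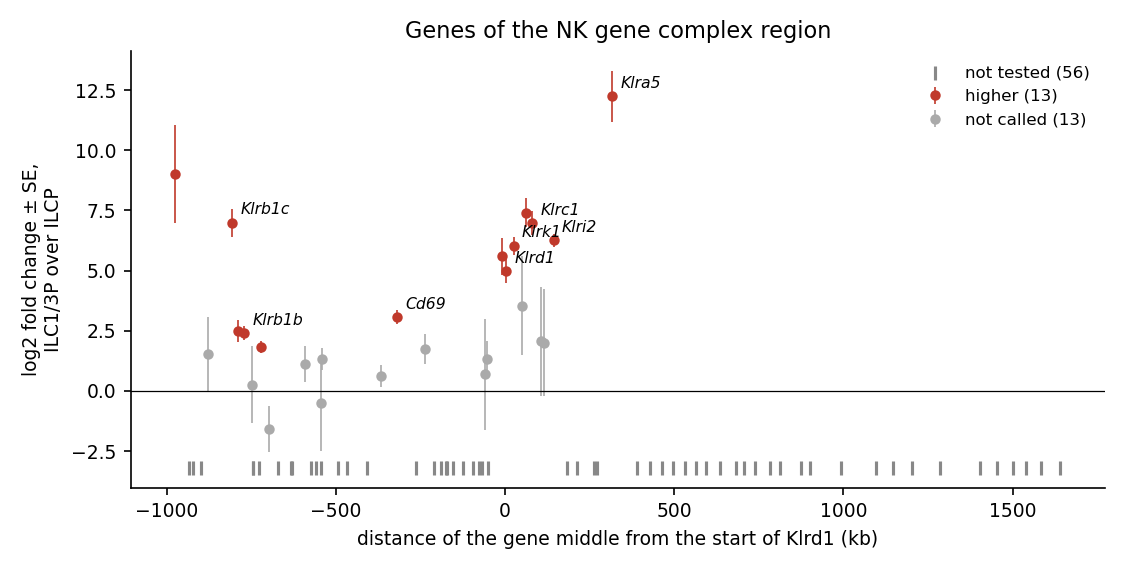
Log2 fold change ± SE of ILC1/3P over ILCP for the tested genes of the NK gene complex region, placed by the distance of the gene's middle from the start of Klrd1 in kb. Red points are the 13 higher genes, grey points the 13 tested genes without a call, and ticks at the bottom the 56 genes that were not tested, most of them at the Klra end on the right.

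The wider list of NK and ILC1 genes moved the same way. Of 40 members 38 had enough counts to test, 22 were higher and 0 lower, with a median log2 fold change of 2.46. Here too, members with no count in ILCP, such as Xcl1, passed the count filter through ILC1/3P alone. Ncr1, for the activating receptor NKp46, had 2.77, 0.512 and 0 CPM in the ILCP libraries and 367 and 281 CPM in the ILC1/3P libraries. ILCP were at or close to 0 for this gene, and its log2 fold change was 8.19 ± 0.89 (SE), adjusted p = 0.00234. Cd160, a receptor for MHC class I related molecules and for HVEM, had 116, 91.9 and 218 CPM in the ILCP libraries and 1847 and 2985 CPM in the ILC1/3P libraries, with a log2 fold change of 4.09 ± 0.41 (SE), adjusted p = 0.00181. It was thus well above 0 in ILCP, unlike Ncr1. Slamf7 and Cd244, receptors of the SLAM family, had log2 fold changes of 7.24 and 2.25, and Cd226, the activating receptor DNAM-1, of 3.07. The adaptor genes whose proteins carry the signal of such receptors were also higher. Fcer1g had 592, 853 and 505 CPM in the ILCP libraries and 3561 and 4659 CPM in the ILC1/3P libraries, a log2 fold change of 2.66 ± 0.29 (SE), adjusted p = 0.00238. Tyrobp, for DAP12, had a log2 fold change of 2.18 ± 0.28 (SE), adjusted p = 0.00311. Cd7 and Car2, a carbonic anhydrase, were higher at 2.86 and 4.79.

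Members without a call included transcription factors that define these lineages. Tbx21, for T-bet, had 5.41, 0.384 and 5.22 CPM against 12.2 and 18.9 CPM and a log2 fold change of 2.08 ± 1.07 (SE), adjusted p = 0.238. Eomes, which sets NK cells apart from ILC1, had 4.48, 3.07 and 0 CPM against 3.97 and 14.7 CPM and an adjusted p of 0.487. Both were low in all libraries, and neither difference passed the threshold, which does not show that the gates are alike. Il2rb and Itga1, for the IL-2 receptor β chain and CD49a, had adjusted p of 0.923 and 0.062. Some members of the NK list overlap the NK gene complex list, so the 2 counts are not separate evidence.

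The promoters of NK and ILC1 genes called higher were searched for short letter strings known from factors of lymphoid cells, because these genes moved together. The string TGTGGTT is read by RUNX factors. The string GGTGTGA belongs to the T-box family, and AGATAA to the family of Gata3. The letters CTTTGA are known from TCF-1 and its relatives, GTGGGAA from the Notch partner RBPJ, and the palindrome TTCCNGGAA from STAT factors. Each was searched on both strands, in the 250 bases before the first listed start of each gene. Sequences are from RefSeq on GRCm38.p6, and 16 of the 22 higher members had an entry. The RUNX letters stood in 5 of these 16 promoters (31.2%), in 292 of 8756 searched promoters of tested genes (3.33%) and in 1204 of the 27025 promoters searched (4.46%). Not every chromosome was searched, so these totals do not cover all promoters. Among all genes called higher the share was 35 of 697 (5.02%), and among those called lower 18 of 594 (3.03%). The T-box letters stood in 3 of the 16 (18.8%), those of Nkg7, Samd3 and Xcl1, against 2.89% of the promoters of tested genes. The other strings stood in 1 promoter or none. AGATAA and CTTTGA were each in 1 of the 16 (6.25%), against 530 and 961 of the 8756 promoters of tested genes, TTCCNGGAA was in 1 (6.25%) against 1.01%, and GTGGGAA in 0 against 5.26%. In the promoters printed here no RUNX match overlapped a match of another string. The 5 promoters with RUNX letters are given 5′ to 3′ on the strand of the gene, with the match in capitals. A match on the other strand reads AACCACA.
Klrk1: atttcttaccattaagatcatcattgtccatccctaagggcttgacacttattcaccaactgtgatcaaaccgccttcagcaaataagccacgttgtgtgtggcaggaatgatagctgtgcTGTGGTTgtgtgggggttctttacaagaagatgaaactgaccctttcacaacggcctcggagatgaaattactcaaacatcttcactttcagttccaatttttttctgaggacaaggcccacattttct
Ncr1: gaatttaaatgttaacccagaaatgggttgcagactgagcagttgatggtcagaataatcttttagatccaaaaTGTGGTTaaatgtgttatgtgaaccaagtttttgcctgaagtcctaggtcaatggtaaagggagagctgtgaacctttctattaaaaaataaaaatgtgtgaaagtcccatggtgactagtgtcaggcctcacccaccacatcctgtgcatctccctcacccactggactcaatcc
Xcl1: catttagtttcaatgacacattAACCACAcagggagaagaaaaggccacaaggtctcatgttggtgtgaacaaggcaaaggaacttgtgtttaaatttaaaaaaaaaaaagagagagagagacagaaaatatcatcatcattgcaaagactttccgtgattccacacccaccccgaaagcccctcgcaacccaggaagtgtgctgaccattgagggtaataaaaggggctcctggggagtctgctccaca
Gzma: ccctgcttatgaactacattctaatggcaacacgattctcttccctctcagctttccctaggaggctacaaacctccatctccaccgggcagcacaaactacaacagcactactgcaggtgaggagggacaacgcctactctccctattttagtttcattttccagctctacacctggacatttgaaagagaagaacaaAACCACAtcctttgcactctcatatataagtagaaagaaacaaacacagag
Cd160: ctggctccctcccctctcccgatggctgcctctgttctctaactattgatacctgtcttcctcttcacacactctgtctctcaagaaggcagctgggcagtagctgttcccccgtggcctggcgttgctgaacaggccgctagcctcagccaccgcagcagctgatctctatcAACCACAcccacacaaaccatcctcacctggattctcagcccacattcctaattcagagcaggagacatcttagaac

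They lie at chr6:129623865-129624114, chr7:4337465-4337714, chr1:164935523-164935772, chr13:113100982-113101231 and chr3:96829352-96829601 in that order, on the minus strand for all but Ncr1. The capitals begin 129 bases before the start for Klrk1, 176 for Ncr1, 228 for Xcl1, 51 for Gzma and 77 for Cd160. A match of letters is a description of the sequence and not a binding site. Of the factors that read such letters, Runx3 had 38.2, 40.7 and 39.1 CPM against 54.6 and 60.6 CPM and was not called (adjusted p = 0.331).

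Some secreted products were higher in ILC1/3P. In the list of cytokines, chemokines and TNF ligands, 25 of 39 genes had enough counts to test, 7 were higher, 1 was lower and 17 were not called. Ifng (ENSMUSG00000055170, chr10:118441047-118445892), which encodes interferon gamma, had 11.3, 24.1 and 25.3 CPM in the ILCP libraries and 883 and 1507 CPM in the ILC1/3P libraries. All 3 ILCP libraries held some Ifng counts, and the log2 fold change was 5.88 ± 0.43 (SE), adjusted p = 0.000553. Ccl3, for the chemokine MIP-1α, had 2.77, 17.8 and 17.6 CPM in the ILCP libraries and 752 and 1021 CPM in the ILC1/3P libraries, a log2 fold change of 6.12 ± 0.67 (SE), adjusted p = 0.00238. Ccl4, its neighbour in sequence and function, had 2.90, 0.128 and 17.1 CPM against 292 and 420.4 CPM. Xcl1, for lymphotactin, which attracts cross-presenting dendritic cells, had no count in ILCP and 20.6 and 194 CPM in ILC1/3P, at least 704-fold higher against the floor of 3 counts. The 2 ILC1/3P libraries differed widely for this gene. Csf2, for GM-CSF, which is made by several ILC subsets, had 6.20, 10.8 and 14.1 CPM in the ILCP libraries and 146 and 129.5 CPM in the ILC1/3P libraries, a log2 fold change of 3.73 ± 0.42 (SE), adjusted p = 0.00238. The lower gene was Tnfsf11, for RANKL, a ligand of lymphoid tissue inducer cells, with 56.6, 39.2 and 47.02 CPM against 7.93 and 5.49 CPM and a log2 fold change of -2.82 ± 0.49 (SE), adjusted p = 0.00802. Ccl4 missed the threshold without replicate 1 of ILCP (adjusted p = 0.0653) and with no low-count filter (adjusted p = 0.184), and Xcl1 did so with no low-count filter (adjusted p = 0.0802).

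Chemokine and cytokine genes that were tested without a call included Ccl5 (log2 fold change 0.12 ± 0.30), Tnf (0.75 ± 0.56) and Lta (0.26 ± 0.32). On the deposited FPKM scale, which divides by gene length and allows levels of different genes to be compared, the ILC1/3P libraries held Gzma at 1071 ± 0.352 FPKM (SD, n = 2), Ccl3 at 879 ± 117 FPKM, Ifng at 747 ± 218 FPKM and Klrc1 at 544 ± 224 FPKM. On the same scale Klrd1 was at 356 ± 51.2 FPKM and Csf2 at 132 ± 21.8 FPKM. The means of Gzma, Ccl3, Ifng and Klrc1 thus lay above that of the receptor the cells were sorted on.

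Granule genes split. Of 25 cytotoxic granule genes 17 had enough counts to test, 5 were higher and 3 lower. Gzma, for granzyme A, had 15.6, 100.01 and 22.99 CPM in the ILCP libraries and 1159 and 1303 CPM in the ILC1/3P libraries. ILCP replicate 2 was the highest of its group, still under both ILC1/3P libraries, and the log2 fold change was 4.74 ± 0.72 (SE), adjusted p = 0.00519. Gzmb, for the apoptosis-inducing granzyme B, had 6.20, 2.18 and 3.53 CPM against 11.6 and 18.4 CPM and an adjusted p of 0.171, and Prf1, for perforin, had too few counts to test. Nkg7, a granule membrane protein, was higher at 1.87 ± 0.33. Lower were Lamp1 and Ctsc, for a lysosomal membrane protein and for the protease that activates granzymes, at -1.74 ± 0.33 and -1.72 ± 0.38. The count of higher genes was 2 without ILCP replicate 1, without ILCP replicate 3 or without ILC1/3P replicate 2, and in the same 3 fits the count of lower genes was 0. Gzma missed the threshold with no low-count filter (adjusted p = 0.104), and Nkg7 did so without replicate 1 or 3 of ILCP (adjusted p 0.0513 to 0.0523). Lamp1 missed the threshold without replicate 1 or 3 of ILCP or replicate 2 of ILC1/3P (adjusted p 0.0526 to 0.0543), and Ctsc did so without replicate 1, 2 or 3 of ILCP or replicate 2 of ILC1/3P (adjusted p 0.0526 to 0.0695).

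**Figure D3:**
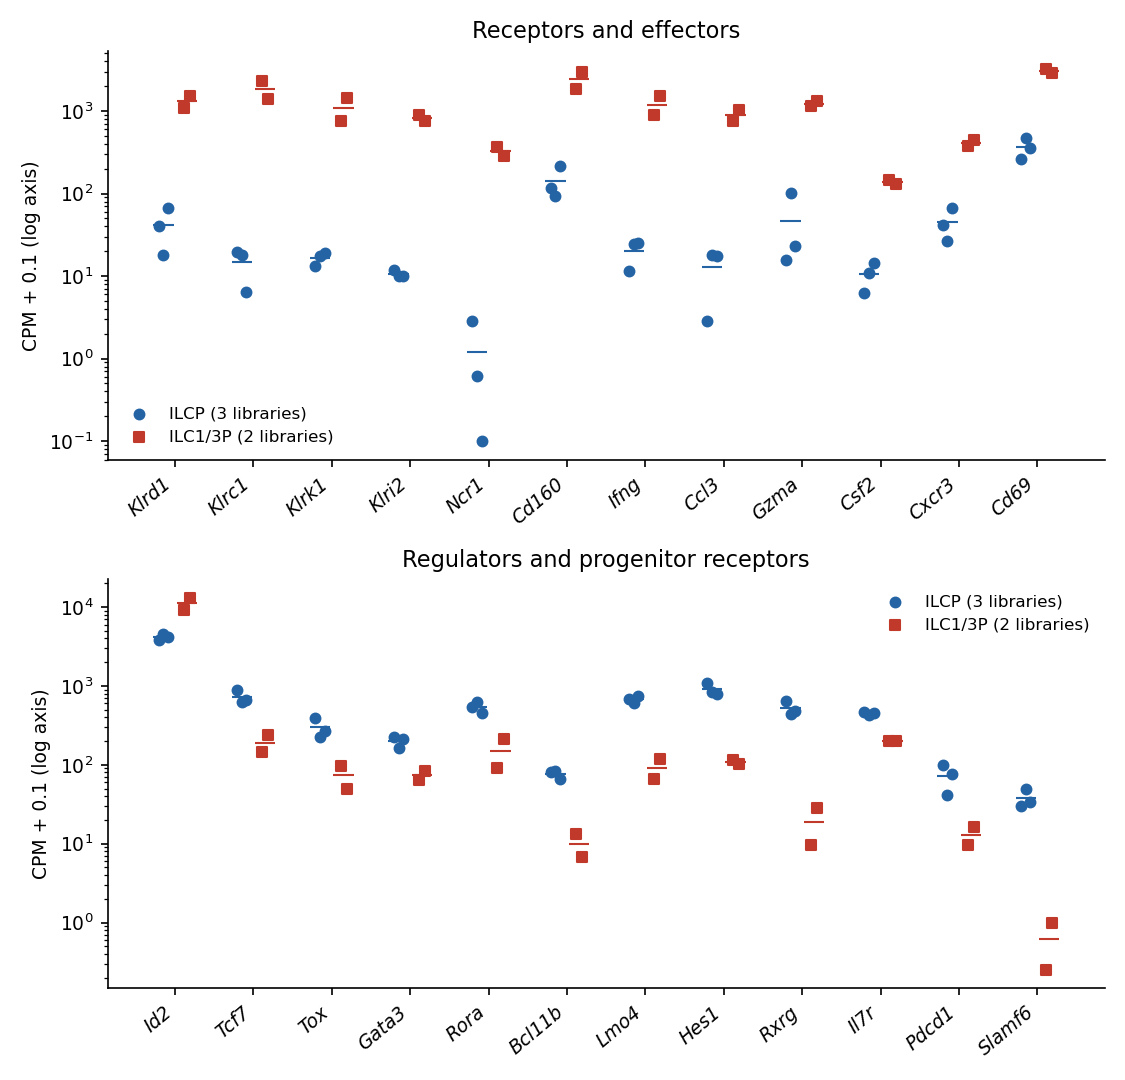
CPM of each library (vertical axis, logarithmic, with the small offset given on it) for 12 receptor and effector genes (top) and 12 regulators and progenitor receptors (bottom); blue circles are the 3 ILCP libraries, red squares the 2 ILC1/3P libraries and bars the group means. The libraries of the gates do not overlap for any gene drawn, with Klrd1 at 1098 and 1513 CPM in ILC1/3P and Hes1 at 116 and 103 CPM. Lack of overlap was common: of all 12151 tested genes, ILC1/3P lay wholly above ILCP for 2636 and wholly below for 3241.

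Regulators of ILC development that changed were mostly lower. Of 25 tested regulators 8 were lower and 1 was higher in ILC1/3P, with a median log2 fold change of -1.04. Tcf7 (ENSMUSG00000000782, chr11:52252371-52283014), for TCF-1, which acts early in ILC and T cell commitment, had 893, 627 and 659 CPM in the ILCP libraries and 146 and 237 CPM in the ILC1/3P libraries. Its log2 fold change was -1.92 ± 0.32 (SE), adjusted p = 0.00669. Bcl11b, known from ILC2 and T cell commitment, had 80.97, 83.9 and 66.1 CPM in the ILCP libraries and 13.1 and 6.59 CPM in the ILC1/3P libraries, a log2 fold change of -2.95 ± 0.46 (SE), adjusted p = 0.0057. Lmo4, a LIM-domain cofactor, had 690.2, 604 and 743 CPM in the ILCP libraries and 65.3 and 119 CPM in the ILC1/3P libraries, a log2 fold change of -2.88 ± 0.33 (SE), adjusted p = 0.00245. All 3 ILCP libraries lay above both ILC1/3P libraries for each of these genes, as they did for 3241 of all 12151 tested genes. Smaller differences of the same sign were called for Tox (-2.02 ± 0.40), Rora (-1.85 ± 0.38) and Gata3 (-1.43 ± 0.29). The higher regulator was Id2, the inhibitor of E proteins that all ILC need, with 3853, 4612 and 4156 CPM in the ILCP libraries and 9253 and 13108 CPM in the ILC1/3P libraries and a log2 fold change of 1.41 ± 0.25 (SE), adjusted p = 0.00841. Id2 was the most abundant regulator of both gates on the FPKM scale, at 3937 ± 154 FPKM (SD, n = 3) in ILCP and 6679.6 ± 1089.5 FPKM (SD, n = 2) in ILC1/3P. Tcf7 missed the threshold with all 8 libraries in the fit (adjusted p = 0.089), and Tox did so without replicate 1 of ILCP or replicate 2 of ILC1/3P (adjusted p 0.0559 to 0.0596). Rora missed the threshold without replicate 1 or 2 of ILCP (adjusted p 0.0551 to 0.0604), and Gata3 did so without replicate 1 or 3 of ILCP or replicate 1 of ILC1/3P (adjusted p 0.0523 to 0.0666). Id2 missed the threshold without replicate 3 of ILCP (adjusted p = 0.0633).

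Other regulators were not called. Zbtb16, for PLZF, the factor by which ILC progenitors are often traced, had 26.8, 8.71 and 10.8 CPM against 4.42 and 0 CPM and an adjusted p of 0.228. Nfil3, which acts upstream of Id2, had 100.4, 46.2 and 39.4 CPM against 33.4 and 23.3 CPM and an adjusted p of 0.178. The count of lower regulators was 4 without ILCP replicate 1, against 6 to 8 without each other library.

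Hes1 and Hey1, known targets of Notch signalling, were lower in ILC1/3P, while 12 of 16 tested Notch genes were not called. Hes1 (ENSMUSG00000022528, chr16:30064384-30067796), a direct Notch target and transcriptional repressor, had 1075, 846 and 801 CPM in the ILCP libraries and 116 and 103 CPM in the ILC1/3P libraries. The values within each gate were close together, and the log2 fold change was -3.05 ± 0.28 (SE), adjusted p = 0.00118. Hey1, a related target, had 151, 86.8 and 172 CPM against 3.36 and 14.9 CPM, a log2 fold change of -3.93 ± 0.67 (SE), adjusted p = 0.00758. Nrarp, another target, was low and not called, with 0, 0.128 and 2.09 CPM against 9.0004 and 1.10 CPM. The receptors Notch1 and Notch2 were not called either. Notch1 had a log2 fold change of 2.23 ± 0.79 (SE), adjusted p = 0.0988, and Notch2 an adjusted p of 0.308. Rbpj, for the DNA-binding partner of Notch, had 47.3, 18.4 and 52.6 CPM against 63.6 and 38.4 CPM and an adjusted p of 0.692. In the whole Notch list 3 of 16 tested genes were lower and 1 was higher, which under scaling by library size alone became 6 and 0.

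Markers of the other ILC lineages were mixed. In the ILC3 and lymphoid tissue inducer list 6 of 22 tested genes were lower and 2 higher. Rxrg, for a retinoid X receptor, had 641, 438 and 474 CPM in the ILCP libraries and 9.46 and 27.9 CPM in the ILC1/3P libraries, a log2 fold change of -4.81 ± 0.51 (SE), adjusted p = 0.00224. Cd81, a tetraspanin, was lower at -2.18 ± 0.30 (SE), adjusted p = 0.00418. Kit, the receptor for stem cell factor, was lower at -1.51 ± 0.41. Gpr183, a receptor for oxysterols that guides ILC3, was higher at 1.89 ± 0.31 (SE), adjusted p = 0.00693. Il22 (-0.40 ± 0.38, adjusted p = 0.548) and Il23r (-1.96 ± 0.61, adjusted p = 0.0674) were not called. Kit missed the threshold without replicate 1, 2 or 3 of ILCP or replicate 1 of ILC1/3P (adjusted p 0.0978 to 0.129).

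In the ILC2 list 2 of 24 tested genes were higher and 1 lower, with a median log2 fold change of -0.44. One of the higher genes was Csf2, described with the cytokines. Arg1 and Icos, known from ILC2 and their progenitors, had adjusted p of 0.286 and 0.269 without a call. The share of ILC2 genes called lower, 1 of 24, was under the background of 6.61% for all tested genes, and that of ILC2 genes called higher near the background of 8.11%.

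T lineage genes were lower more often than higher, 6 against 3 of 28 tested. Themis, which sets T cell receptor signal strength in the thymus, had 87.6, 164 and 213 CPM against 9.0004 and 12.1 CPM, a log2 fold change of -3.88 ± 0.48 (SE), adjusted p = 0.00277. Cd27, a costimulatory receptor, was lower at -1.80 ± 0.30 (SE), adjusted p = 0.00702. Tcrg-C1, a constant segment of the γ chain locus, was among the lower genes with the most counts, with 2356, 4680.1 and 3263 CPM against 1135 and 1336 CPM. Cd2 was higher at 2.67 ± 0.37 (SE), adjusted p = 0.00386. The count of lower genes was 2 without ILCP replicate 3 or without ILC1/3P replicate 2, 3 without ILCP replicate 1, and 10 with scaling by library size alone. Tcrg-C1 missed the threshold without replicate 3 of ILCP or replicate 1 or 2 of ILC1/3P (adjusted p 0.0693 to 0.076) and with all 8 libraries in the fit (adjusted p = 0.34).

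Receptors that respond to outside signals changed in both directions. Among the SLAM and checkpoint receptors, Slamf6, for Ly108, went against Slamf7 and Cd244, with 30.1, 48.9 and 33.7 CPM in the ILCP libraries and 0.153 and 0.878 CPM in the ILC1/3P libraries and a log2 fold change of -6.25 ± 0.86 (SE), adjusted p = 0.00382. Ccr9, a homing receptor for the gut and thymus, was lower at -2.85 ± 0.43 (SE), adjusted p = 0.00509. Cxcr3, the receptor for interferon-induced chemokines, had 41.9, 26.3 and 67.5 CPM in the ILCP libraries and 372 and 448 CPM in the ILC1/3P libraries, a log2 fold change of 3.18 ± 0.39 (SE), adjusted p = 0.00267. Rgs1, which dampens chemokine receptor signals, was higher at 2.92 ± 0.34. In all, 7 of 28 tested genes for chemokine receptors, egress and retention were higher and 5 lower. Of 31 cytokine receptors 0 were higher (background 8.11%) and 3 lower (9.68%, background 6.61%), Il7r among them. The share of lower genes was near the background and is not a result about cytokine receptors. Il7r missed the threshold without replicate 1 or 3 of ILCP or replicate 2 of ILC1/3P (adjusted p 0.0541 to 0.0606).

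Some signalling and survival genes were called, in both directions. Lcp2, for the adaptor SLP-76, was lower at -2.65 ± 0.34 (SE), adjusted p = 0.00303. In the list of antigen and NK receptor signalling 6 of 33 genes were lower (18.2%, background 6.61%) and 4 higher (12.1%, background 8.11%). Scaling by library size alone made this 11 and 2. Of 18 tested BCL2 family genes 2 were higher and 2 lower, with a median log2 fold change of 0.44. These shares, 11.1% each, stood near the backgrounds of 8.11% and 6.61% and are not a result about the family. Bcl2, the survival factor downstream of IL-7, had 147, 116 and 131 CPM in the ILCP libraries and 21.97 and 36.2 CPM in the ILC1/3P libraries, a log2 fold change of -2.18 ± 0.36 (SE), adjusted p = 0.00667. Bcl2a1d, for a relative of Bcl2, was higher at 3.82 ± 0.69 (SE), adjusted p = 0.00932, but the Bcl2a1 genes are near-identical copies, so their counts are uncertain. The integrin list held 1 higher and 3 lower genes of 22 tested out of 36 in the table, and the list of STAT and SOCS genes 0 and 1 of 20, neither far from the background shares.

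**Figure D4:**
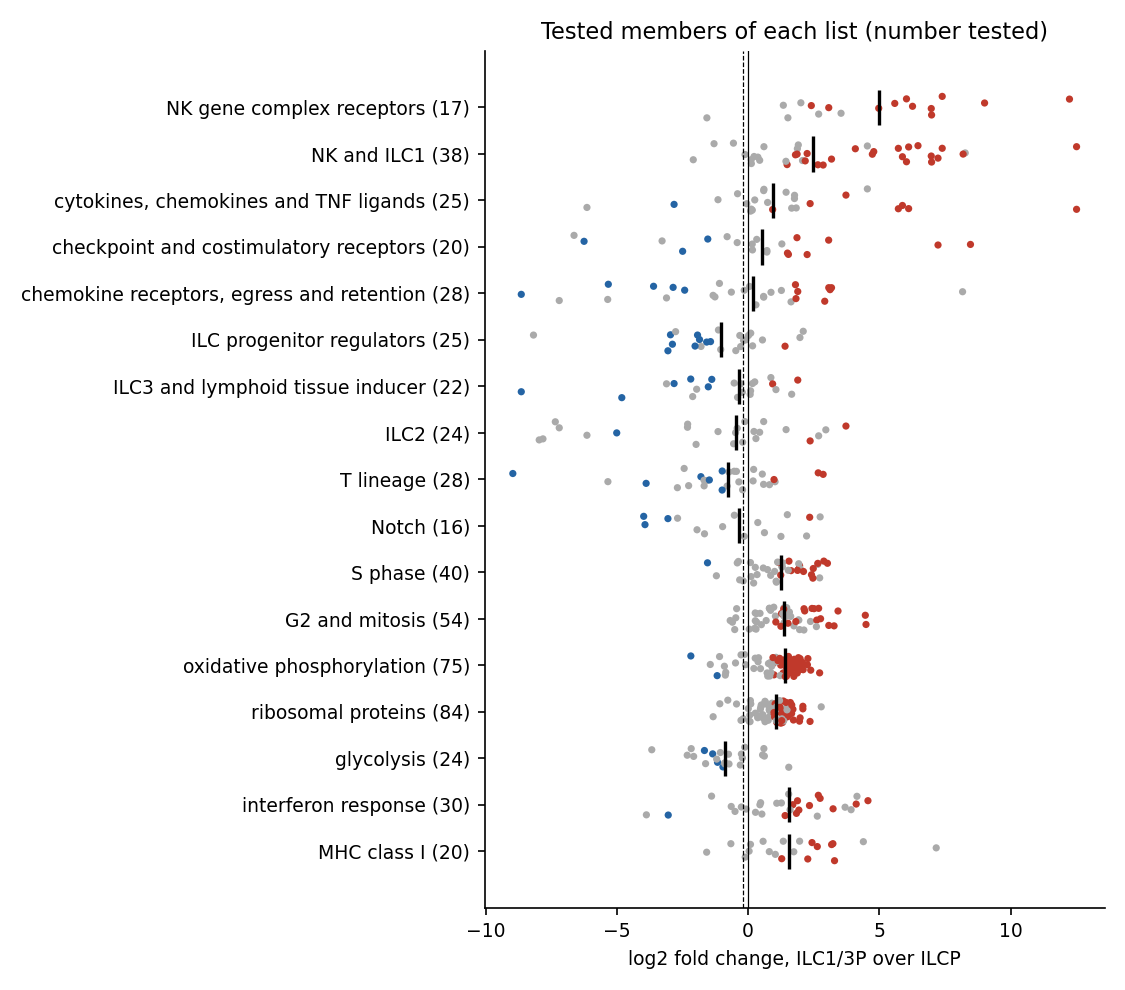
Log2 fold change of ILC1/3P over ILCP for every tested member of 17 gene lists, the number tested beside each name; red points are higher, blue points lower and grey points without a call, black bars are list medians and the dashed line is the median of all tested genes, -0.21. The NK gene complex list lies farthest to the right with a median of 4.98 (Klrd1 included), and the regulator list to the left with a median of -1.04.

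Part of the genes of the cell cycle were higher in ILC1/3P. Of 54 tested genes of G2 and mitosis 18 were higher and 0 lower (median log2 fold change 1.37), and of 40 S phase genes 14 were higher and 1 lower (median 1.27). Cdk1, the kinase that drives entry into mitosis, had 39.7, 24.2 and 44.9 CPM in the ILCP libraries and 892 and 713 CPM in the ILC1/3P libraries. The lowest ILC1/3P value was many times the highest ILCP value, and the log2 fold change was 4.47 ± 0.33 (SE), adjusted p = 0.000553. Mki67, for the proliferation antigen Ki-67, had 41.7, 24.8 and 33.05 CPM in the ILCP libraries and 229.7 and 198 CPM in the ILC1/3P libraries, a log2 fold change of 2.69 ± 0.32 (SE), adjusted p = 0.00247. Top2a, for the topoisomerase of dividing cells, was higher at 3.28 ± 0.29 (SE), adjusted p = 0.00115, and Birc5, for survivin, at 3.08 ± 0.23 (SE), adjusted p = 0.000553. Tyms, for thymidylate synthase, had 56.05, 75.9 and 91.7 CPM in the ILCP libraries and 556 and 658 CPM in the ILC1/3P libraries, a log2 fold change of 3.02 ± 0.28 (SE), adjusted p = 0.00123. Pcna, the sliding clamp of DNA replication, was higher at 2.47 ± 0.23 (SE), adjusted p = 0.00123, Gins1, of the replicative helicase, at 2.89 ± 0.34, and Uhrf1, which maintains DNA methylation, at 2.11 ± 0.34.

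Genes of G1 were mostly not called. Of 24 tested, 1 was higher and 4 lower. Ccnd2, for cyclin D2, was the higher one at 2.24 ± 0.36 (SE), adjusted p = 0.00667. The lower ones included Cdk4, the partner of D cyclins, with 571, 583 and 645 CPM against 292 and 242 CPM and a log2 fold change of -1.17 ± 0.24. Myb, for a factor of proliferating progenitors, was lower at -2.65 ± 0.58. Calls were fewer with 1 library less: 0 of the G1 genes were lower without ILCP replicate 1 or without ILC1/3P replicate 2, 1 was without ILCP replicate 2 or 3, and S phase genes called higher numbered 9 without ILCP replicate 1 and 8 without ILCP replicate 3. Scaled by library size alone, 13 genes of G2 and mitosis and 9 of S phase were higher and 1 and 3 lower. Cdk4 missed the threshold without replicate 1 or 3 of ILCP or replicate 2 of ILC1/3P (adjusted p 0.0513 to 0.0762), and Myb did so without replicate 1 or 2 of ILCP or replicate 2 of ILC1/3P (adjusted p 0.0587 to 0.0786).

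Genes of energy metabolism and translation differed in a broad and mostly small way. Of 75 tested nuclear genes of oxidative phosphorylation 48 were higher and 2 lower, with a median log2 fold change of 1.40. Cycs, for cytochrome c, had 26.6, 44.2 and 33.05 CPM in the ILCP libraries and 211 and 248 CPM in the ILC1/3P libraries, a log2 fold change of 2.73 ± 0.31 (SE), adjusted p = 0.00245. Uqcr10, a small subunit of complex III, was higher at 2.39 ± 0.33, and Atp5k, of the ATP synthase, at 2.28 ± 0.28. One of the 2 lower genes was Ndufs1, for the largest subunit of complex I, with 158, 123 and 204 CPM against 40.7 and 30.5 CPM and a log2 fold change of -2.18 ± 0.35 (SE), adjusted p = 0.00649. Of 84 tested ribosomal protein genes 37 were higher and 0 lower (median 1.05), Rpl38 among them at 2.36 ± 0.27 (SE), adjusted p = 0.00245. Of 13 mitochondrially encoded genes 7 were higher and 0 lower (median 1.22). Glycolysis genes went the other way with 4 of 24 lower and 0 higher (median -0.88). Ldha, for lactate dehydrogenase, was one of them, with 2622, 1939 and 2354 CPM in the ILCP libraries and 1161 and 651 CPM in the ILC1/3P libraries and a log2 fold change of -1.35 ± 0.31 (SE), adjusted p = 0.0229. Ldha missed the threshold without replicate 1 or 3 of ILCP or replicate 2 of ILC1/3P (adjusted p 0.0849 to 0.104).

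The counts of these groups moved with single libraries. Without ILCP replicate 3 the genes called higher were 22 of oxidative phosphorylation, 14 ribosomal and 0 mitochondrially encoded, without ILCP replicate 1 they were 30, 16 and 2, and without ILC1/3P replicate 2 they were 28, 16 and 2. No glycolysis gene was lower without ILCP replicate 1 or without ILCP replicate 3. Scaled by library size alone, 32 genes of oxidative phosphorylation were higher and 8 lower, 16 ribosomal genes were higher and 1 lower, and 10 glycolysis genes were lower. Copies of these genes elsewhere in the genome make counts uncertain: Gapdh, a glycolysis gene with many processed copies, had 5.14, 6.79 and 7.84 CPM against 2.90 and 9.22 CPM, low for a housekeeping gene.

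Exon length and level moved with these calls. Tested genes were split into 4 bins of equal size by summed exon length and again by mean CPM. In the bin with the shortest exons, up to 2429 bases, 17.8% were higher and 4.29% lower, with a median log2 fold change of 0.24. In the longest bin, from 6483 bases, 2.71% were higher and 5.55% lower, with a median of -0.22. In the bin of highest mean CPM, from 56.3, 27.0% were higher and 11.9% lower, and in the lowest bin 0.263% and 2.30%. The tested genes of oxidative phosphorylation had a median length of 1801 bases, the ribosomal genes 1754.5 and the mitochondrially encoded genes 784, so most of them fall in the shortest bin. The NK and ILC1 genes had a median of 2565 bases, those of S phase 4347 and those of G2 and mitosis 4520. By level, the median mean CPM of the tested members was 412 for oxidative phosphorylation, 185 for ribosomal and 1276 for mitochondrially encoded genes. It was 117 for NK and ILC1 genes, 63.7 for MHC class I and 61.7 for S phase. All these medians fall in the bin of highest level. That of G2 and mitosis, 47.8, falls in the bin below it, where 3.885% were higher and 8.265% lower. The part of length or level in any of these groups was not tested. The third bin by length, which holds the medians of the cell cycle lists, had 4.42% of its genes higher and 7.62% lower.

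**Figure D5:**
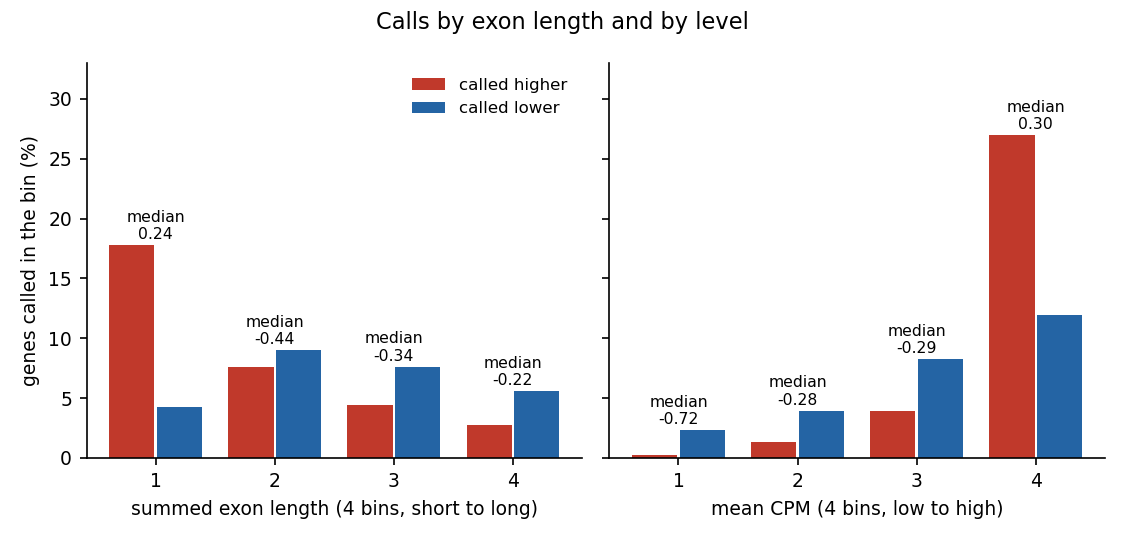
Share of tested genes called higher (red) and lower (blue) in 4 bins of summed exon length from short to long (left) and of mean CPM from low to high (right), in percent, with the median log2 fold change above each pair of bars. Higher calls took 17.8% of the shortest bin and 2.71% of the longest, and 27.0% of the bin with the highest level.

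Some genes of MHC class I presentation and of the interferon response were higher. In the MHC class I list 7 of 20 tested genes were higher and 0 lower (median log2 fold change 1.54). B2m, the invariant chain of all class I molecules, had 957, 1202 and 1346 CPM in the ILCP libraries and 7602 and 15336 CPM in the ILC1/3P libraries, a log2 fold change of 3.29 ± 0.34 (SE), adjusted p = 0.00188. H2-K1, a classical class I heavy chain, was higher at 2.64 ± 0.24 (SE), adjusted p = 0.00115. Psmb9 and Psmb10, subunits of the immunoproteasome, were higher at 2.44 ± 0.34 and 2.28 ± 0.31. H2-Q6 and H2-Q7 were called too, but class I heavy chain genes are near-identical and their counts are uncertain. Of 38 genes of the interferon list 30 had enough counts to test, 11 were higher and 1 lower (median 1.57). Bst2, for tetherin, had 3.69, 4.74 and 6.27 CPM in the ILCP libraries and 50.2 and 121 CPM in the ILC1/3P libraries, a log2 fold change of 4.12 ± 0.52 (SE), adjusted p = 0.00291. Zbp1, a sensor of nucleic acids, was higher at 2.68 ± 0.44, and Xaf1 at 2.75 ± 0.35. Core genes of a type I interferon response were low and not called, with Isg15 at 0.659, 0 and 0.392 CPM against 2.14 and 2.41 CPM and Ifit1 at 2.11, 0 and 8.88 CPM against 9.31 and 0.878 CPM. Irf9, of the factor that transmits the type I signal, was lower at -3.04 ± 0.61, and Ifngr2, a receptor chain for interferon gamma, at -3.75 ± 0.69. Scaled by library size alone, 7 interferon genes were higher and 1 lower. Irf9 missed the threshold without replicate 1 or 3 of ILCP or replicate 2 of ILC1/3P (adjusted p 0.055 to 0.064), and Ifngr2 did so without replicate 3 of ILCP (adjusted p = 0.0506).

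Immediate early genes, which report recent stimulation or handling, did not rise as a group, with 5 of 28 lower and 2 higher. Nr4a1, for Nur77, a target of antigen receptor signals, had 227, 150.2 and 184 CPM in the ILCP libraries and 23.8 and 39.3 CPM in the ILC1/3P libraries, a log2 fold change of -2.57 ± 0.36 (SE), adjusted p = 0.0043. Junb was lower at -1.98 ± 0.35 (SE), adjusted p = 0.00878, and Ier2 at -2.09 ± 0.26 (SE), adjusted p = 0.00273. Of 21 fetal growth and imprinted listed genes 15 had enough counts to test, 3 were lower and 0 higher. Igf2, for the fetal growth factor, had 58.8, 65.7 and 57.6 CPM against 1.37 and 14.9 CPM and missed the threshold (adjusted p = 0.0508).

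Outside the lists, the higher gene with the most counts was Tmsb4x, for thymosin β4, a binder of monomeric actin, with 10599, 15629 and 11465 CPM in the ILCP libraries and 46792 and 74205 CPM in the ILC1/3P libraries and a log2 fold change of 2.27 ± 0.30 (SE), adjusted p = 0.00343. It took 3.795% to 5.36% of the counts of an ILC1/3P library and 1.33% to 1.77% in ILCP. Pfn1, for profilin, another actin binder, was higher at 1.74 ± 0.29. The largest rises with a mean of at least 20 CPM in a group were mostly genes already named. Ube2l6, the conjugating enzyme for ISG15, was one that was not, with 0, 0 and 0.131 CPM against 42.9 and 12.95 CPM. Several genes were present in every ILCP library and at 0 in both ILC1/3P libraries. Scamp4, for a secretory carrier membrane protein, had 102, 75.6 and 114 CPM in ILCP, so that ILC1/3P were at least 359-fold lower against a floor of 3 counts over the group. The locus of Scamp4 in the table overlaps another locus, so this count is uncertain. Gulp1, for an engulfment adaptor, was at least 171-fold lower, Adh1, for an alcohol dehydrogenase, at least 137-fold, and Cyp11a1, for the enzyme that starts steroid synthesis, at least 77.3-fold. Surface proteins nearly absent from ILC1/3P were Ceacam1 and Nt5e. Ceacam1 had 21.1, 22.8 and 28.1 CPM against 0 and 0.220 CPM, and Nt5e, for the ecto-nucleotidase CD73, had 40.7, 26.9 and 20.4 CPM against 0.305 and 0 CPM. Pfn1 missed the threshold without replicate 3 of ILCP (adjusted p = 0.0531).

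Markers of other cells the sort could hold were summed per library. Myeloid markers summed to 126 to 171 CPM in ILCP and 670.1 to 834 CPM in ILC1/3P. Of 18 myeloid markers 8 had enough counts to test, 2 were higher and 0 lower, and 7 of the 8 had a positive fold change (median 2.24). Fcgr3, an Fc receptor, made up most of the sums and was higher at 2.32 ± 0.26, and Lyz2, for lysozyme, had 8.70, 3.33 and 6.66 CPM against 36.3 and 37.8 CPM and was higher at 2.57 ± 0.59. The granulocyte markers Elane, Ctsg and Csf3r were at 0 in all 5 libraries, but others held low counts. On the scale of all 8 libraries, mean CPM in ILCP and ILC1/3P was 2.04 and 9.15 for Prtn3, 3.09 and 3.04 for S100a8 and 2.16 and 3.00 for S100a9. For mast cell and basophil markers the ILCP sums ran from 546 to 714 CPM, against 199.5 to 285 CPM for ILC1/3P. Mcpt1, Mcpt2, Mcpt4, Mcpt8, Fcer1a and Ms4a2 were at 0. Of 4 tested 2 were lower (Cpa3 and Kit), 0 were higher and 1 had a positive fold change (median -1.19). Cpa3 made up most of these sums, with 446, 581 and 463 CPM against 171 and 220 CPM. It was lower at -1.34 ± 0.26 (SE), adjusted p = 0.0121. Cpa3 missed the threshold without replicate 3 of ILCP (adjusted p = 0.0523) and with all 8 libraries in the fit (adjusted p = 0.195). Erythroid markers summed to 115 to 152 CPM in ILCP and 30.1 to 38.6 CPM in ILC1/3P, with Hbb-y and Klf1 at 0. Tfrc, the transferrin receptor, made up most of the ILCP sums, with 96.9, 106 and 134 CPM against 12.5 and 10.3 CPM, and was lower at -3.30 ± 0.38 (SE), adjusted p = 0.00238. The globin gene Hba-a1 had 0, 3.07 and 2.09 CPM against 12.2 and 14.3 CPM and Hba-a2 1.98, 1.41 and 0.522 CPM against 1.68 and 10.98 CPM, neither called. Hepatocyte markers summed to 129.8 to 336 CPM in ILCP and 87.7 to 161 CPM in ILC1/3P, with Alb, Ttr, Serpina1a and Fga at 0. Of 7 tested 1 was lower (Krt8), 0 were higher and 1 had a positive fold change (median -1.84). On the scale of all 8 libraries, mean CPM in ILCP and ILC1/3P was 19.7 and 13.4 for Afp, 24.8 and 6.72 for Ahsg and 2.44 and 9.90 for Apoa2. Krt8 missed the threshold without replicate 1, 2 or 3 of ILCP (adjusted p 0.106 to 0.157) and with all 8 libraries in the fit (adjusted p = 0.0662). T cell markers summed to 1609 to 2101 CPM in ILCP and 3087 to 4095 CPM in ILC1/3P, most of it Trbc2 with 1558, 2065 and 1775 CPM against 3064 and 4082 CPM, and Cd4 was at 0. Of 7 tested 1 was higher (Trbc2) and 1 lower (Cd8b1). Only 2 of the 7 had a positive fold change, and the median log2 fold change was -1.67. Cd8b1 missed the threshold without replicate 1 or 3 of ILCP (adjusted p 0.0929 to 0.162). Multipotent progenitor markers summed to 553 to 779 CPM in ILCP and 979.7 to 1235 CPM in ILC1/3P, but of 11 tested 4 were lower (Cd34, Kit, Hlf and Myb) and 2 higher (Cd48 and Ly6a), with a median log2 fold change of -1.15. Cd48 made up most of the ILC1/3P sums, with 217, 355 and 264 CPM against 741 and 878 CPM. The part of such cells in the gene groups was not tested. Lyz2 missed the threshold without replicate 1 or 3 of ILCP or replicate 2 of ILC1/3P (adjusted p 0.0557 to 0.0772) and scaled by library size alone (adjusted p = 0.0765), and Trbc2 did so without replicate 1 or 3 of ILCP or replicate 2 of ILC1/3P (adjusted p 0.11 to 0.146) and scaled by library size alone (adjusted p = 0.237). Cd34 missed the threshold without replicate 1, 2 or 3 of ILCP or replicate 2 of ILC1/3P (adjusted p 0.0615 to 0.105), and Kit did so without replicate 1, 2 or 3 of ILCP or replicate 1 of ILC1/3P (adjusted p 0.0978 to 0.129). Hlf missed the threshold without replicate 1, 2 or 3 of ILCP or replicate 1 or 2 of ILC1/3P (adjusted p 0.0743 to 0.14), and Myb did so without replicate 1 or 2 of ILCP or replicate 2 of ILC1/3P (adjusted p 0.0587 to 0.0786). Cd48 missed the threshold without replicate 3 of ILCP (adjusted p = 0.0531), and Ly6a did so with no low-count filter (adjusted p = 0.121).

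The CLP libraries show where ILCP and ILC1/3P stand beside a population upstream of both. On the common scale of all 8 libraries, the mean CPM of CLP, ILCP and ILC1/3P, given in that order and with no test, was 12.7, 783 and 206 for Tcf7, 23.2, 732 and 99.5 for Lmo4, 2.59, 215 and 79.8 for Gata3 and 211, 4534 and 12049 for Id2. The means of Tcf7, Lmo4 and Gata3 were highest in ILCP, while that of Id2 was highest in ILC1/3P. For Hes1 the means were 875, 978 and 118, so ILC1/3P were the low group. For Cdk1 they were 35.3, 39.1 and 865, and for B2m 1219, 1259 and 12359.7, with ILC1/3P as the high group. Cd69 was lowest in ILCP, at 1744, 390.3 and 3288. So were Ccl3, at 1047, 13.7 and 955, and Ccl4, at 843, 7.23 and 384, and for both the highest mean was that of CLP. Klrd1 stood at 52.8, 44.6 and 1407, so that CLP and ILCP held similar low levels.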

How the data were processed

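RNA of sorted fetal liver cells was amplified with a SMARTer Ultra Low kit and sequenced on a NovaSeq6000, per the labels' protocols. The authors deposited one table of 34745 genes with raw counts and FPKM values per library. The counts were tested as deposited, and the FPKM values, per length and library size by the authors, were used only to compare levels between genes. Per the submitters' processing notes, coordinates are those of mm10. Which aligner, counter and annotation made the counts, and whether strand was used, is not given in the sources used here.

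Counts of the 3 ILCP and 2 ILC1/3P libraries were filtered with filterByExpr, scaled with TMM and tested with edgeR 4.0.16 (robust quasi-likelihood, limma 3.58.1, R 4.3.3) with Benjamini-Hochberg adjustment at 0.05. SE is the log2 fold change over the square root of F. DESeq2 1.42.0 and other settings served as alternatives, and the code was tested on simulated data. A gene with no count in a group was compared with a floor of 3 counts over the group, which covers counting error only. The labels give each group its replicate numbers, and replicates differed by more than sampling noise.

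The comparison, gene lists, motifs and tests were chosen with earlier results of these data known. The rule for named genes took all sort markers, from each list the 5 or fewer members with the smallest p, and the 2 most counted of each list of other cells. Per direction it added the 6 called genes of highest mean CPM and the 15 of largest change whose libraries did not overlap and whose higher mean reached 20 CPM, without predicted genes, pseudogenes and receptor segments. Regulators, cytokines and effectors that missed the threshold could be given with values. Other genes named were chosen after their values were seen. Some genes that the rule names are not reported here. Of the table's genes, 34344 were found by identifier in GENCODE M21, which gave exon lengths for 99.7% of tested genes. Exons of several named genes overlap those of another gene, so their counts are uncertain: Adh1, Bcl2, Ccnd2, Ccr9, Cd7, Cd27, Cd81, Cd160, Cdk4, Csf2, Cyp11a1, Gata3, Ifng, Igf2, Irf9, Itga4, Junb, Klrb1b, Klrb1c, Lamp1, Lcp2, Myb, Ndufs1, Notch1, Notch2, Psmb9, Rora, Slamf7, Themis, Top2a, Tox and Xcl1.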

Additional observations from a re-analysis of the deposited data

How the results depend on the processing

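No gene called in the main fit had the opposite sign under any alternative. Of 293 called list members and named genes, 133 were called under every alternative and 160 were lost under at least 1. Against 986 higher and 803 lower genes, scaling by library size alone gave 448 and 1743, and DESeq2 gave 1350 and 1436. With no low-count filter the counts were 1182 and 1194, and with all 8 libraries in the fit 1095 and 1142. Leaving out 1 library at a time gave 411 to 901 higher and 228 to 1063 lower genes. The lowest counts in both directions came without ILCP replicate 3 (411 and 228) and without ILCP replicate 1 (450 and 230). Without an ILC1/3P library that gate has 1 sample, which is assumed to vary like ILCP. Without ILC1/3P replicate 2, 2 genes that were not called in the main fit were called lower, Cdc25b (-6.09, adjusted p = 0.0389) and Meis1 (-3.15, adjusted p = 0.0492). Without ILC1/3P replicate 1 they had log2 fold changes of 1.33 and 0.93. The cause was not tested. Replicate numbers 1 and 2 are shared by the gates, and deviations of same-numbered libraries correlated at -0.00474 and 0.00592 across genes. With 2 ILC1/3P libraries the deviations of that gate are mirror images, so this check cannot tell whether the numbers pair the samples. With the replicate number as a block, 603 genes were higher and 338 lower, and 913 of the 1789 main calls (51.0%) were kept. The limits given with single genes leave this fit out. Calls lost in it include Pdcd1 (adjusted p = 0.0688), Gata3 (adjusted p = 0.0641) and Hlf (adjusted p = 0.209). The libraries held 6043940 to 8082476 counts, and the part of depth in genes at a few CPM, such as Tbx21 and Eomes, was not tested.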
